A study of Rattus norvegicus with 23 samples.

Results

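The voltage-gated calcium channel subunits described here are the products of 9 genes of the 14217 named on the array, Cacna1a, Cacna1b, Cacna1c, Cacna1d, Cacna1e, Cacnb3, Cacnb4, Cacna2d1 and Cacna2d3. Every probe set that the array platform's annotation assigns to one of these symbols was taken, which gave 17 of the 31099 probe sets on the array. RNA came from the microdissected CA3 field of the hippocampus of 23 male Long-Evans rats, an outbred strain, with 1 Affymetrix Rat Genome 230 2.0 array per animal and no treatment in any group. Young rats were 6 months old (n = 9). Aged rats, obtained at 8 to 9 months, were 24 to 26 months old and were divided by a learning index from the Morris water maze, in which a rat learns where a hidden platform lies, into aged unimpaired (n = 6) and aged impaired (n = 8) animals, and all 3 groups were killed 2 weeks after testing. The question put to the arrays was which transcripts differ with age and which differ with the loss of spatial learning among the aged animals.

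Voltage-gated calcium channels open when the membrane depolarises and let calcium into the neuron. The alpha1 subunit forms the pore and holds the voltage sensor, and it sets the channel type: Cacna1a encodes the pore of P/Q-type channels, Cacna1b of N-type, Cacna1c and Cacna1d of L-type and Cacna1e of R-type channels. P/Q-type and N-type channels trigger transmitter release at presynaptic terminals, while L-type channels lie mainly on the soma and dendrites and couple calcium entry to gene transcription and to the afterhyperpolarisation that follows a burst of spikes. Beta subunits (Cacnb genes) bind the pore on its cytoplasmic side and bring it to the membrane, and alpha2delta subunits (Cacna2d genes) lie on the outer face, where they promote surface delivery and bind gabapentin-like drugs in the case of Cacna2d1. In CA3, pyramidal neurons receive the mossy fibres and excite each other through recurrent collaterals, so that the same tissue holds both terminals and dendrites that carry these channels.

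Values are log2 expression as deposited, so that a difference of 1 is a doubling, and the levels of different probe sets are not comparable. A probe set was tested where its log2 value was at least 4 on at least 6 arrays. Of the 17 probe sets, 8 passed, all 8 on 23 of 23 arrays, and these represent 7 of the 9 genes. The other 9 stayed below the filter. Cacna1e and Cacnb4 had 1 probe set each, and neither rose above a log2 value of 2.20 on any array, at the floor of the scale, so that R-type pore and beta-4 transcripts were not detectable with these probes. The remaining 7 are further probe sets of Cacna1a, Cacna1b, Cacna1c and Cacna1d, whose highest value on any array lay between 2.19 and 3.28. A second Cacna1c probe set read 3.28 on every array.

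Tests were made with limma on all 14647 probe sets above the filter, and a probe set is said to have fallen where its p-value, adjusted by Benjamini-Hochberg over all of these, was at most 0.05. Each ± after a group mean is the SD over animals and each ± after a difference is the standard error (SE) of the fit. The tissue is a mixture of cells, so fewer cells of a type and less RNA per cell cannot be told apart. The comparisons of the aged groups with young share the 9 young animals.

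In aged impaired animals, probe sets of 5 of the 7 measured genes fell against young: the P/Q-type pore gene Cacna1a, the N-type pore gene Cacna1b, the beta subunit gene Cacnb3 and both alpha2delta genes, Cacna2d1 and Cacna2d3. Of all tested probe sets, 5.88% were lower in this comparison, and the genes were chosen with earlier results of these data known. The falls lay between 1.14-fold (Cacna2d3) and 1.33-fold (Cacna2d1). Of 23 fits that left out 1 animal, 9 lost the call of Cacna1a and 7 that of Cacna2d1. Neither L-type pore gene passed the test. In aged unimpaired animals, the fall that passed was that of a second Cacna1a probe set, where 0.696% of all tested probe sets were lower. No probe set of these genes differed between the aged groups after adjustment. The genes are described below in the order of their roles, from pores to auxiliary subunits.

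Cacna1b, the N-type pore, had a log2 level in young animals from 8.53 to 8.81 with a median of 8.62. In aged unimpaired animals it ran from 8.35 to 8.57 with a median of 8.47, and in aged impaired animals from 8.28 to 8.54 with a median of 8.47. The animals of both aged groups sat low, with 7 of 8 aged impaired and 5 of 6 aged unimpaired animals below every young animal, although the ranges touch. The group means were 8.64 ± 0.09 in young (SD, n = 9), 8.46 ± 0.07 in aged unimpaired (n = 6) and 8.43 ± 0.10 in aged impaired animals (n = 8). The aged impaired level was 1.16-fold lower than young, a log2 difference of -0.21 ± 0.04 with an adjusted p of 0.00565 in limma. The difference of aged unimpaired from young was similar in size, -0.18 ± 0.05, with a limma adjusted p of 0.0536, just above the threshold. It became a call without young animal 6, aged unimpaired animal 2 or aged impaired animal 2 or 6, each left out alone (adjusted p from 0.0402 to 0.0441). Between the aged groups the log2 difference was -0.03, with a 95% confidence interval from -0.13 to 0.07. Cacna1b thus differed from young by nearly as much in unimpaired as in impaired animals, and the interval leaves room for a further fall or rise of at most 1.10-fold and 1.05-fold.

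Cacna1a, the P/Q-type pore, had 2 probe sets above the filter. The brighter, 1395062_at, ran in young animals from 6.36 to 7.11 with a median of 6.85. It lay between 6.30 and 6.63 (median 6.58) in aged unimpaired and between 5.71 and 6.63 (median 6.55) in aged impaired animals. All 14 aged animals were below the young median, and 7 of 9 young animals were above every aged animal of either group. The aged impaired mean, 6.43 ± 0.32 (SD, n = 8), was 1.31-fold below the young mean of 6.82 ± 0.25 (n = 9), a log2 difference of -0.39 ± 0.12 with an adjusted p of 0.0387 in limma. This call was lost in 9 of 23 fits that left out 1 animal, those without aged impaired animal 2, 3 or 4 or young animal 1, 2, 3, 4, 7 or 9, with adjusted p-values up to 0.0702 and log2 differences from -0.45 to -0.28 over all 23. It was lost in 6 of 11 other alternatives too. In aged unimpaired animals the mean was 6.53 ± 0.13 (n = 6), and the log2 difference of -0.28 ± 0.13 had a limma adjusted p of 0.264.

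The second Cacna1a probe set, 1386939_a_at, put the groups in another order. Its young values ran from 5.32 to 6.44 with a median of 5.91, its aged unimpaired values from 4.75 to 5.43 with a median of 5.28, and its aged impaired values from 5.07 to 6.17 with a median of 5.56. Here the aged unimpaired animals were lowest, with 4 of 6 below every young animal, and the aged impaired animals overlapped both other groups. The aged unimpaired mean, 5.19 ± 0.28 (SD, n = 6), was 1.62-fold below the young mean of 5.88 ± 0.37 (n = 9), a log2 difference of -0.69 ± 0.17 with an adjusted p of 0.0381 in limma. That call was lost without aged unimpaired animal 2, 4, 6 or 8 or young animal 1, 2, 3, 4 or 7, each left out alone, with adjusted p-values up to 0.112 and log2 differences from -0.76 to -0.61, and also without a filter (0.112) and with the control gap as a covariate (0.0641). In aged impaired animals the log2 difference from young was -0.28 ± 0.16 (adjusted p 0.267 in limma). Aged impaired minus aged unimpaired was 0.41 ± 0.18, the one member difference between the aged groups with an unadjusted p under 0.05 (0.0319), and its limma adjusted p was 0.273.

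The 2 Cacna1a probe sets correlated with r = 0.52 over the 23 arrays and 0.44 over deviations from the group means, given as descriptions. Both read one gene on the same arrays, so they are not separate evidence. On 1395062_at, 6 arrays (1 young, 3 aged unimpaired and 2 aged impaired) shared exactly the value 6.63, and on 1386939_a_at 4 arrays shared 5.43. Such repeated values occur widely in this table, with 28.1% of tested probe sets having at least 6 arrays at a common value, and they narrow the spread within a group. What the 2 probe sets share is that the young mean was highest on each; which aged group was lower depended on the probe set.

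**Figure D1:**
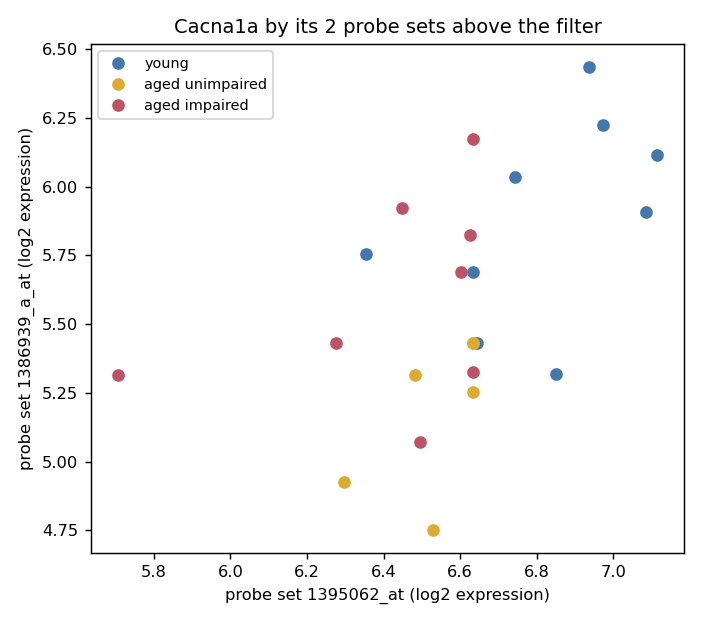
Log2 expression of Cacna1a in each of the 23 animals on its 2 probe sets above the filter, 1395062_at on the horizontal and 1386939_a_at on the vertical axis, coloured by group. Young animals reach furthest up and right, and the aged animals that share the value 6.63 line up at 1 horizontal position, where some points coincide.

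The L-type pores showed smaller or more scattered differences. Cacna1c ran from 7.81 to 8.06 (median 7.90) in young, from 7.62 to 7.94 (median 7.89) in aged unimpaired and from 7.60 to 8.01 (median 7.82) in aged impaired animals. Those ranges overlap through most of their length, and 7 arrays in the 3 groups shared the value 7.89. Aged impaired minus young was -0.11 ± 0.05 with an adjusted p of 0.165 in limma and a 95% interval from -0.22 to -0.01. That interval holds a fall of at most 1.17-fold for Cacna1c, which bounds the difference rather than showing that there was none.

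Cacna1d, the other L-type pore measured, varied most among young animals, from 5.41 to 6.86 with a median of 6.33. Aged unimpaired animals lay in a narrow band from 6.21 to 6.36 (median 6.27), and aged impaired animals ran from 5.75 to 6.25 (median 6.14). No aged impaired animal was below every young animal, though all 8 were below the young median and 5 of 8 were below every aged unimpaired animal. The log2 difference of aged impaired from young was -0.22 ± 0.14 (adjusted p 0.328 in limma), with a 95% interval from -0.50 to 0.07. Its aged unimpaired mean was level with young, a difference of 0.01 ± 0.15 (limma adjusted p 0.987), and aged impaired minus aged unimpaired was -0.23 ± 0.15 (limma adjusted p 0.526). The SD was 0.42 in young and 0.06 in aged unimpaired animals, while the fit uses 1 shared spread for all groups.

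Cacnb3 encodes the beta-3 subunit, one of the cytoplasmic subunits that carry the pore to the membrane. Young animals ran from 9.01 to 9.31 with a median of 9.12, aged unimpaired animals from 8.91 to 9.08 with a median of 8.99, and aged impaired animals from 8.48 to 9.05 with a median of 9.00. The medians of the aged groups were therefore close, and the lower aged impaired mean comes from a tail of low animals: 3 of 8 were below every aged unimpaired animal. The mean was 9.16 ± 0.11 in young (SD, n = 9), 8.99 ± 0.08 in aged unimpaired (n = 6) and 8.88 ± 0.21 in aged impaired animals (n = 8). Aged impaired animals were 1.21-fold below young, a log2 difference of -0.28 ± 0.07 with an adjusted p of 0.0163 in limma. That call held without any 1 of the 23 animals (adjusted p from 0.0122 to 0.0364). In aged unimpaired animals the log2 difference was -0.17 ± 0.08 (limma adjusted p 0.258), and between the aged groups -0.11 ± 0.08 (limma adjusted p 0.560).

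Cacna2d1, the alpha2delta-1 subunit, showed the largest of the 8 log2 differences between aged impaired and young animals. Its young values ran from 8.24 to 8.94 with a median of 8.45, its aged unimpaired values from 7.97 to 8.77 with a median of 8.18 and its aged impaired values from 7.67 to 8.60 with a median of 8.12. All aged impaired animals but 1 were below every young animal. The mean fell from 8.51 ± 0.23 in young (SD, n = 9) to 8.10 ± 0.26 in aged impaired animals (n = 8), 1.33-fold, a log2 difference of -0.41 ± 0.12 with an adjusted p of 0.0335 in limma. The call was lost without aged impaired animal 2, 4, 7 or 8 or young animal 1, 2 or 5, each left out alone, with adjusted p-values up to 0.0683 and log2 differences from -0.48 to -0.35, and without a filter on low values (adjusted p 0.0871). Aged unimpaired animals had a mean of 8.25 ± 0.29 (n = 6), -0.26 ± 0.13 from young (limma adjusted p 0.313).

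Cacna2d3, the alpha2delta-3 subunit, differed by less and with little spread. Young animals ran from 10.51 to 10.80 (median 10.57), aged unimpaired animals from 10.35 to 10.56 (median 10.51) and aged impaired animals from 10.20 to 10.56 (median 10.41). Of the aged impaired animals, 7 of 8 were below every young animal, against 3 of 6 aged unimpaired animals. The mean of 10.41 ± 0.10 in aged impaired animals (SD, n = 8) was 1.14-fold below the young mean of 10.60 ± 0.09 (n = 9), a log2 difference of -0.19 ± 0.05 with an adjusted p of 0.0124 in limma. Leaving out any 1 animal kept this call (adjusted p from 0.00554 to 0.0254) and that of Cacna1b (0.00456 to 0.0132). In aged unimpaired animals the difference was -0.11 ± 0.05 (limma adjusted p 0.247).

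**Figure D2:**
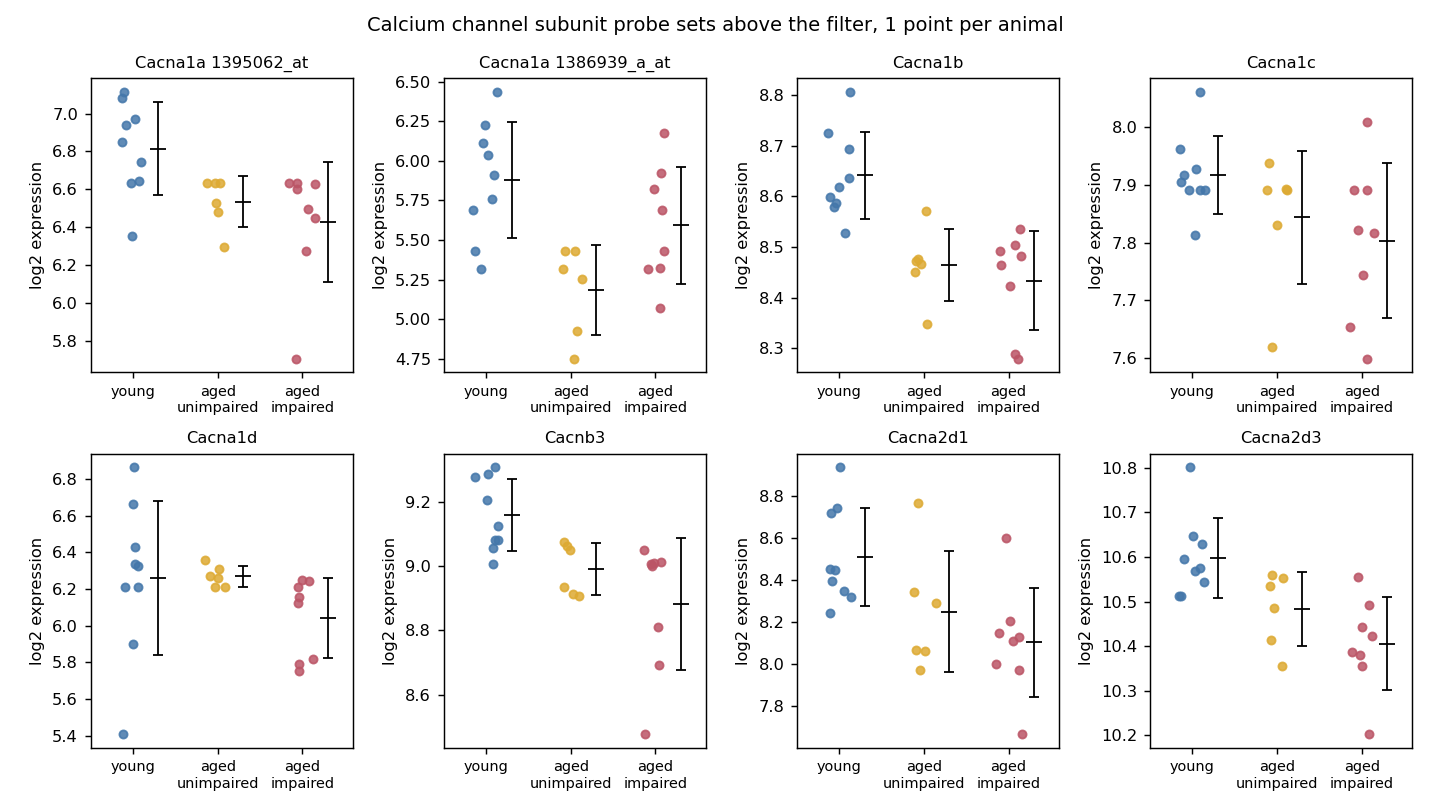
Log2 expression of the 8 calcium channel subunit probe sets above the filter in each animal, by group (9 young, 6 aged unimpaired, 8 aged impaired), with the mean and SD as a black bar beside the points; the vertical axes differ between panels. Most aged impaired animals sit below most young animals for Cacna1a 1395062_at, Cacna1b, Cacnb3, Cacna2d1 and Cacna2d3, while Cacna1a 1386939_a_at, Cacna1c and Cacna1d overlap more.

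Counted together, 5 of the 8 tested member probe sets fell in aged impaired against young animals and none rose, where 5.88% of all tested probe sets were lower and 9.76% were called in either direction. The median log2 difference of the 8 was -0.25 against -0.02 over all tested probe sets. In aged unimpaired against young animals, 1 of 8 fell, where 0.696% of all were lower and 2.06% were called, and the member median was -0.17 against -0.00. Before adjustment 6 of 8 members in the first comparison and 5 of 8 in the second had a p under 0.05, against 26.3% and 16.8% of all tested probe sets. These counts describe the members; the genes were chosen with earlier results of these data known.

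Between aged impaired and aged unimpaired animals 0 of 8 members were called in limma, where 0.102% of all tested probe sets were lower and 0.778% were called, and 1 of 8 had an unadjusted p under 0.05. The adjusted p-values ran from 0.273 to 0.826. This comparison is also the test of whether the 2 aged groups differ from young by unequal amounts, so the falls that passed in 1 aged group alone are not shown to be larger there. The group means stood in the order young, aged unimpaired, aged impaired from high to low in 6 of 8 members, against 25.3% of all tested probe sets, with Cacna1d and 1386939_a_at of Cacna1a as the exceptions. In none of the 8 was every aged impaired animal below every young animal, a separation that 0.259% of all tested probe sets had.

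With both aged groups averaged against young, 4 of 8 members fell (3.56% of all tested probe sets were lower, 6.9% called). These were Cacna1b with a log2 difference of -0.19 ± 0.04 (adjusted p 0.0048 in limma), Cacna2d3 with -0.15 ± 0.04 (0.0267), Cacnb3 with -0.22 ± 0.06 (0.032) and 1386939_a_at of Cacna1a with -0.49 ± 0.14 (0.0393). The other Cacna1a probe set, with -0.33 ± 0.10 and a limma adjusted p of 0.0532, and Cacna2d1, with -0.33 ± 0.11 and 0.0573, fell just outside the threshold. The Cacna2d3 call was lost without young animal 7 (adjusted p 0.0504), that of Cacnb3 without aged unimpaired animal 8 or young animal 1, 3, 8 or 9 (up to 0.0701), and that of Cacna1a without any of 12 animals (up to 0.0849: aged impaired 2, 3, 4 or 5, aged unimpaired 2, 6 or 8, young 1, 2, 3, 4 or 7). The count of calls was 2 without aged unimpaired animal 8 or young animal 1, 3 or 7. Without a filter on low values, only the call of Cacna1b remained among the 8 (adjusted p 0.053 for Cacna2d3, 0.0761 for Cacnb3 and 0.105 for Cacna1a).

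**Figure D3:**
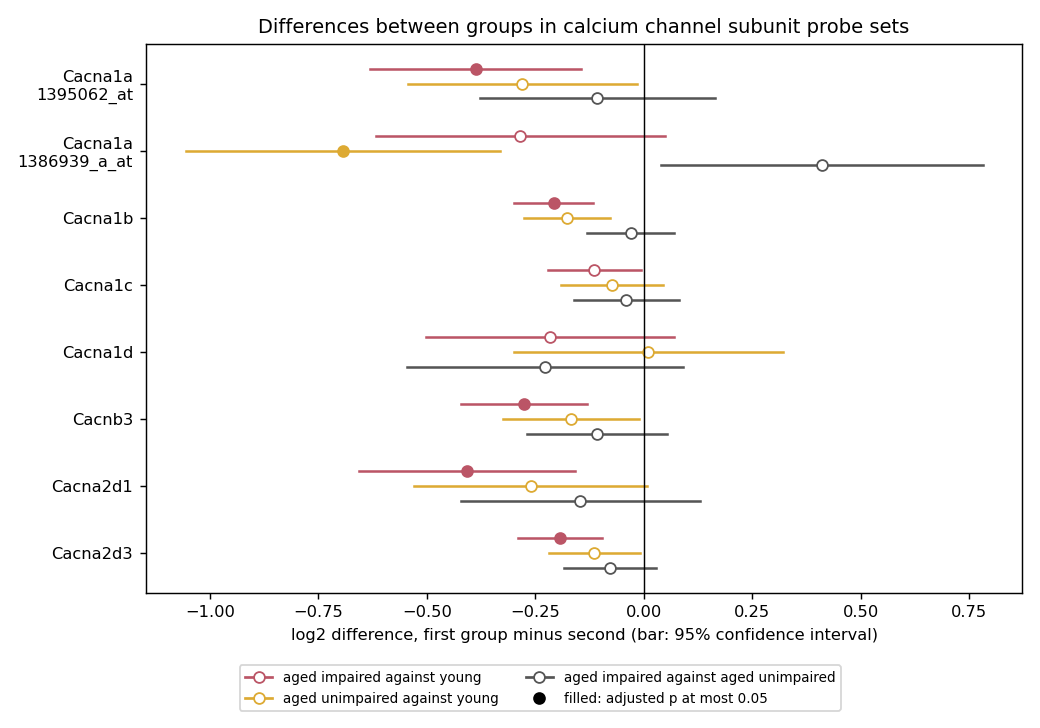
Log2 differences (horizontal axis) of the 8 probe sets in 3 comparisons, with 95% confidence intervals from limma; filled points had an adjusted p of at most 0.05. The points for aged impaired against young are all left of 0, 5 of them filled, and 7 of 8 intervals for aged impaired against aged unimpaired cross 0.

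Every aged animal had most of the 8 probe sets below the young median, which largely restates the lower group means animal by animal. Counting for each animal how many of the 8 probe sets lay below the young median, aged impaired animals had 6 to 8 (median 8), aged unimpaired animals 6 to 8 (median 8) and young animals 1 to 8 (median 3). The young animal with 8 was young animal 6, whose mean deviation from the young mean was -0.18, inside the range of the aged animals. Averaged over the 8 probe sets, the deviation from the young mean ran from -0.18 to 0.15 in young, from -0.33 to -0.10 in aged unimpaired and from -0.46 to -0.09 in aged impaired animals. Aged impaired animals 2 and 4 were lowest, at -0.46 and -0.44, and aged impaired animal 1 was nearest to young. The medians of the aged groups were -0.23 for unimpaired and -0.22 for impaired animals. This average counts Cacna1a by 2 probe sets that order the aged groups differently. On 1386939_a_at the difference from young was -0.69 in aged unimpaired and -0.28 in aged impaired animals. In 7 of 8 probe sets the aged impaired mean was below the aged unimpaired mean, though none of these differences was called. Over the 28 pairs of member probe sets, r across the 23 arrays had a median of 0.41 and ran from -0.03 to 0.69. Over deviations from the group means the median r was 0.15, from -0.29 to 0.52, lower than over all arrays, and 20 of 28 pairs were above 0. The pairs include the 2 Cacna1a probe sets with each other. No value over all tested probe sets is given here for the counts or the correlations, so a coordinated fall is not shown. Within groups, the pair of Cacna1d and Cacnb3 had the r of 0.52, and Cacna1a 1395062_at with Cacna2d3 had 0.49.

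**Figure D4:**
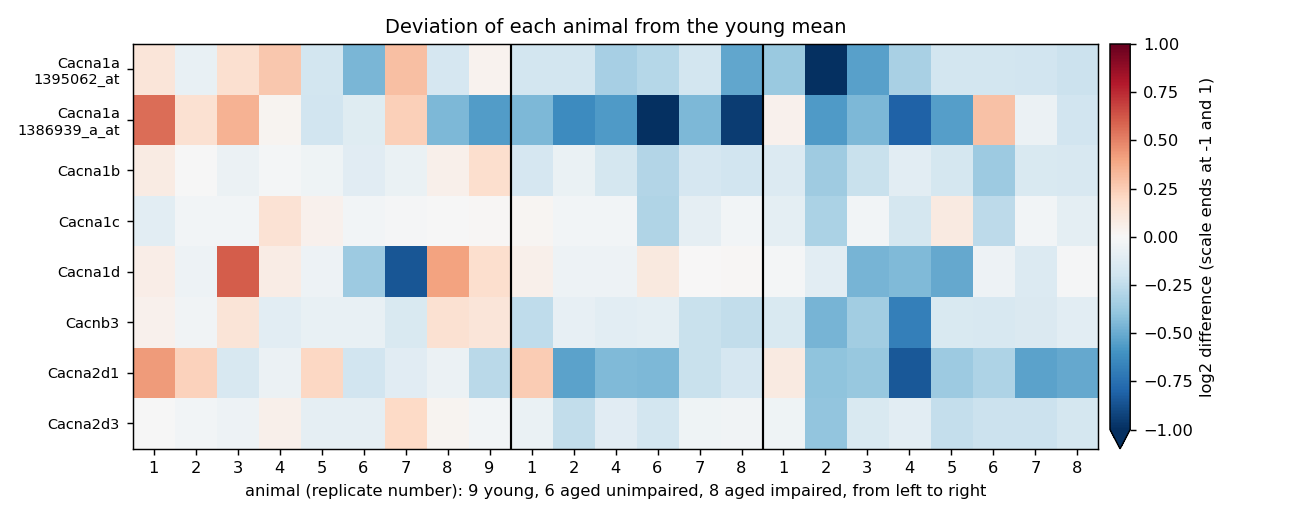
Deviation of each animal from the young mean (colour, log2 units, blue for lower) for the 8 probe sets in rows, with the 9 young, 6 aged unimpaired and 8 aged impaired animals in columns by replicate number. Aged impaired animals 2 and 4 are blue in most rows, aged impaired animal 1 is pale, and Cacna1d and Cacna1a vary among the young animals.

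The genes whose log2 values followed a member most closely over the 23 arrays were taken for each member's brightest probe set. Cacna2d3 had the closest companions, Gpr158, an orphan receptor of neurons, at r = 0.92 (0.85 over deviations from group means) and Dkk3, a secreted protein enriched in CA3, at 0.90 (0.82). Cacna2d1 was followed by Derl1 at 0.85 and Mat2b at 0.83, and Cacnb3 by B4galt2 at 0.84 and Rnf215 at 0.83. Cacna1a (1395062_at) was followed by Cabp1, a neuronal calcium-binding protein that binds calcium channels, at 0.82 (0.71 within groups), and by Chgb, a protein of secretory granules, at 0.81 (0.71). For Cacna1b they were Zc3h15 at 0.81 and Csrp2 at 0.79, which dropped to 0.60 and 0.49 within groups. Cacna1c was followed by Fstl5 at 0.77 and Brinp2 at 0.72, and Cacna1d by Marf1 at 0.79 and Lpin2 at 0.78. These are the highest of all correlations with the tested genes and are given as descriptions of this table.

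Among the other pore and auxiliary genes of the channel family, 9 genes were listed, 7 had a probe set and 4 of 12 probe sets passed the filter, those of Cacnb1 and Cacnb2. The T-type pores Cacna1g, Cacna1h and Cacna1i and the L-type pores of retina and muscle, Cacna1f and Cacna1s, stayed between 2.19 and 3.14 at their highest. Cacnb1, the beta-1 subunit, was lower in aged impaired animals, at 8.52 ± 0.08 (SD, n = 8) against 8.64 ± 0.06 in young (n = 9), with 4 of 8 below every young animal. The log2 difference was -0.13 ± 0.04 with an adjusted p of 0.041 in limma. It was lost without aged impaired animal 2, 4, 6 or 8 or young animal 1, 2, 3, 4, 7 or 9, each left out alone (adjusted p up to 0.0799, log2 differences from -0.14 to -0.11), and in 6 of 11 other alternatives (up to 0.0753). The 3 Cacnb2 probe sets differed by -0.10, -0.04 and -0.00 and did not pass.

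Gamma subunits are membrane proteins named for a muscle channel subunit; in brain, Cacng2 (stargazin) and Cacng3 act mainly as AMPA receptor auxiliary proteins. Of 9 gamma probe sets, 4 were tested. Cacng2 1368759_at ran from 9.14 to 9.76 (median 9.45) in young, from 8.82 to 9.60 (median 9.30) in aged unimpaired and from 8.49 to 9.35 (median 8.94) in aged impaired animals. Of the aged impaired animals, 7 of 8 were below every young animal. The difference from young was -0.45 ± 0.11, a 1.36-fold fall with an adjusted p of 0.013 in limma. The other Cacng2 probe set, 1375735_at, differed by 0.11 ± 0.11 (limma adjusted p 0.579), and the pair had r = -0.09 over the arrays, so that the fall of Cacng2 rests on 1 probe set. Cacng3 differed by 0.21 ± 0.10 (limma adjusted p 0.188), and Cacng7 barely varied between arrays.

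Proteins that bind the channels or regulate them were taken from a list of 44 genes, of which 28 were tested with 49 probe sets. In aged impaired against young animals 3 of the 49 fell and 1 rose; the share that fell, 6.12%, was near the 5.88% of all tested probe sets. Cabp1 fell by 0.33 ± 0.09 on the log2 scale (adjusted p 0.0204 in limma), with 6 of 8 animals below every young animal. Prkaca, the catalytic subunit of protein kinase A, which phosphorylates L-type channels, fell by 0.27 ± 0.06 (limma adjusted p 0.0111), with 7 of 8 below every young animal. Stx1a, the plasma membrane SNARE syntaxin-1A that binds N-type and P/Q-type channels, fell by 0.27 ± 0.07 on probe set 1387360_at (limma adjusted p 0.022). Stac2, an adaptor of L-type channels, rose by 0.47 ± 0.11 (limma adjusted p 0.0124), from a mean of 3.87 to 4.33 near the low end of the scale, with 6 of 8 animals above every young animal. With the control gap as a covariate the adjusted p was 0.0551 for Cabp1 and 0.0508 for Stx1a, and without a filter 0.0527 and 0.0536.

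A second Stx1a probe set, 1387359_at, fell in aged unimpaired animals, by 0.62 ± 0.15 from young (adjusted p 0.03 in limma), while its aged impaired difference from young was -0.05 ± 0.14. Aged impaired minus aged unimpaired on that probe set was 0.57 ± 0.15 with a limma adjusted p of 0.0709. The fall was lost without aged unimpaired animal 1, 4 or 6 or young animal 1, 3 or 4 (adjusted p up to 0.073, log2 differences from -0.70 to -0.46). It was lost in 4 of 11 other alternatives, among them no filter (0.0911), the 2 groups alone (0.0827) and the control gap as a covariate (0.0518). As with Cacna1a, 2 probe sets of one gene placed the aged groups in different orders. No probe set of the list was called between the aged groups. With both aged groups averaged, Cabp1, Prkaca and Stx1a (1387360_at) were called; the call was lost for Cabp1 without aged unimpaired animal 6 or young animal 3, 4, 8 or 9 (adjusted p up to 0.0609) and for Prkaca without aged impaired animal 4, aged unimpaired animal 2 or young animal 1, 2, 3, 7 or 9 (up to 0.0772). Without a filter the adjusted p was 0.0778 for Cabp1 and 0.0814 for Prkaca, and with quantile normalization 0.0510 for Prkaca. The median difference of the list in aged impaired animals was -0.05, near the -0.02 of all tested probe sets.

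Calcium-activated potassium channels open on the calcium that these channels admit. Of 8 probe sets 3 were tested, and Kcnmb4, the neuronal beta-4 subunit of the large-conductance channel, fell by 0.15 ± 0.04 in aged impaired against young animals (adjusted p 0.0232 in limma), with 6 of 8 below every young animal. Kcnma1, its pore, differed by -0.14 ± 0.06 (limma adjusted p 0.146) and Kcnn1 by -0.02. With the control gap as a covariate the adjusted p of Kcnmb4 was 0.0694.

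Some markers of the cells in the tissue differed between aged impaired and young animals too. Marker calls are given for that comparison only, in which 5.88% of all tested probe sets were lower and 9.76% were called in either direction. Of 9 tested CA3 pyramidal markers, 4 (Nrip3, Dkk3, Chgb and Nptx1) were lower and 1 (Prkcd) higher in aged impaired than in young animals, with a median difference of -0.20; their mean level per animal, centred over arrays, ran from -0.04 to 0.20 in young, -0.12 to 0.06 in aged unimpaired and -0.33 to 0.13 in aged impaired animals. The lowest of these was aged impaired animal 2, also the lowest in the members. The highest aged impaired animal was animal 1, the nearest to young in the members. Other animals ranked differently in the 2 measures. Aged impaired animal 4, at -0.44 in the members, had a marker score of -0.05, and animal 7, at -0.18 in the members, had -0.14. General neuron markers had 3 of 12 lower (Nefl, Tubb3 and Stmn2), with scores from -0.00 to 0.13 in young, -0.16 to 0.07 in aged unimpaired and -0.13 to 0.05 in aged impaired animals. Of 6 tested microglial markers 5 were higher, with scores from -0.64 to -0.22 in young, -0.00 to 0.42 in aged unimpaired and 0.04 to 0.71 in aged impaired animals (Cx3cr1 and Itgam were below the filter), and 2 of 8 astrocyte markers, Gfap and S100b, were higher, with scores from -0.28 to 0.04, from -0.01 to 0.21 and from -0.06 to 0.28. No tested marker was called among 6 of CA1 pyramidal neurons, 3 of dentate granule cells, 6 of interneurons, 6 of oligodendrocytes, 3 of endothelium, 1 of choroid plexus and 1 of blood. CA1 scores ran from -1.44 to 0.79 in young, -0.26 to 0.21 in aged unimpaired and -0.50 to 1.04 in aged impaired animals. Dentate granule scores ran from -0.46 to 0.49, from -0.26 to 0.56 and from -0.45 to 0.67. The highest CA1 score, 1.04, was that of aged impaired animal 2. This animal also had the highest dentate granule (0.67), microglial (0.71) and astrocyte (0.28) scores of the 23 animals. Its mean r with the other arrays, 0.9959, was the lowest of the 23. The part of these cell markers in the member differences was not tested.

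Promoter sequence was available for 8 of the 9 genes, as the 250 bases before the RefSeq start on assembly GRCr8, and Cacnb4 had no entry. Cacna2d1 had 3 listed starts, of which only the most upstream was used. All 5 genes with a fall had a GC box, GGGCGG on either strand, as did 6 of the 8 genes listed, against 30.5% of 33469 promoter windows of the same length. The windows of the 5 genes were rich in G and C, at 76.8% for Cacna1a, 72% for Cacna1b, 76.4% for Cacnb3, 77.2% for Cacna2d1 and 78.8% for Cacna2d3, with a median of 51.2% over all windows. Cacna1d, which did not pass the test, had the richest window, at 88.8% with 9 GC boxes, while Cacna1c and Cacna1e had none. Not all of these windows lie before the gene. Those of Cacna1a, Cacna1e and Cacnb3 lie wholly inside the annotated gene, with starts 74342, 168985 and 2741 bases from its outer end. For Cacna1c 184 of the 250 bases lie inside it, for Cacna2d1 140 and for Cacna2d3 138. None of the 8 held TGACGTCA, the full cyclic AMP response element (1.59% of all windows), or TATAAA, the TATA box (12.9%). The E-box CANNTG, on either strand, occurred in 4 of 8 (65.5% of all windows). A match describes these letters only. The stretches of 3 falling genes that lie outside the annotated gene are shown because they carry the GC boxes, in capitals, 5′ to 3′ on the gene's strand, which is the minus strand of GRCr8 for each: Cacna1b at chr3:27944293-27944535, Cacna2d1 at chr4:20330288-20330397 and Cacna2d3 at chr16:4919038-4919149.
Cacna1b: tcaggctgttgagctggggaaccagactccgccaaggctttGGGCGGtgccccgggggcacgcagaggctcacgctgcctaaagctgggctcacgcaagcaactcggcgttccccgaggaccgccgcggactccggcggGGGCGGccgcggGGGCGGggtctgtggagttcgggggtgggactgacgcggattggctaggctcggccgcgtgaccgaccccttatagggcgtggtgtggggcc
Cacna2d1: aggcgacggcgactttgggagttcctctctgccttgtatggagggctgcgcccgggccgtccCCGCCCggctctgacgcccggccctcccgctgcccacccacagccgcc
Cacna2d3: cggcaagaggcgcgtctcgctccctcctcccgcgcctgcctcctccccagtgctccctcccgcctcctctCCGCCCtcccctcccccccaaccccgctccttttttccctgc
Cacna1b has 3 such boxes in its window and all 3 are in the stretch shown, where 2 lie close together; Cacna2d1 has 7 and Cacna2d3 4 in the full window, of which the stretches shown hold 1 each, as the reverse complement.

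The whole table gave 1429 called probe sets in aged impaired against young animals (39.7% of them higher), 302 in aged unimpaired against young (200 higher, 102 lower) and 114 between the aged groups (99 higher, 15 lower). Centring each array on its median over all probe sets moved the first share to 20.7% higher, and centring over the tested probe sets to 50%, while the median of all differences moved by at most 0.034. Under these scalings all 5 member falls in aged impaired animals kept their call. A gap between 2 control rows ran from 2.08 to 2.46 in young animals. It ran from 2.12 to 2.39 in aged unimpaired and from 2.02 to 2.27 in aged impaired animals. The names of these rows may be out of register with their values, so the gap is not a measure of RNA quality. With the gap as a covariate 4 of the 5 falls kept their call, and Cacna1a 1395062_at had a difference of -0.31 (adjusted p 0.115 in limma).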

How the data were processed

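Expression was measured in CA3 tissue of 23 rats with 1 array each; the labels give separate animals as replicates and no batch. The deposited log2 values come from GCRMA, per the submitters' processing notes, with its version not given in the sources used here. GCRMA normalizes arrays together and sets dim probe sets to a floor, which compresses low differences; arrays give no read depth, and their number limits the precision. Array medians lay between 3.39 and 3.46, and no 2 arrays were identical. Names come from the platform annotation (20826 probe sets with 1 symbol, 436 with several, 9780 with none; 20758 matched the GRCr8 gene table by identifier).

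The 57 control probe sets were left out. The names of the control rows may be out of register with their values, so the gap between 2 of them (named GAPDH 5′ and GAPDH M) was used as a covariate only in an alternative. limma 3.58.1 (R 4.3.3) fitted 1 mean per group to 23 arrays (20 residual and 2.35 prior degrees of freedom), with two-sided moderated tests and Benjamini-Hochberg adjustment over 14647 probe sets; the script was tested on simulated data. Alternatives were other scalings, filters, array weights, covariates, sample subsets and each animal left out.

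The members and lists were chosen with earlier results of these data known. All member probe sets are named, genes of the other lists where a probe set was called (every gene of the subunit lists may be), and the 2 genes with the highest r to each member's brightest probe set. The aged unimpaired animals carry the replicate numbers 1, 2, 4, 6, 7 and 8. Young animal 9 stands between aged unimpaired animals 4 and 6 in the sample order, for a reason not given in the labels. Replicate numbers were not taken to pair animals: over 20 same-numbered pairs r ran from -0.14 to 0.13, and 2 exceeded 0.1. No differently numbered pairs are set beside these, so whether the number marks a shared step of processing was not tested. Promoter stretches are shown only outside the annotated gene, so the windows of Cacna1a and Cacnb3, which lie inside it, are not; motifs were counted in the 250 bases before the start. Protein sequences were not used here.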

Additional observations from a re-analysis of the deposited data

Results flagged for a closer look

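In 6 of 48 groups tested (16 probe sets in 3 groups), 1 animal stood apart from the rest of its group; chance gives about 1 in 20. Aged impaired animal 2 was lowest for Cacna1a 1395062_at, at a log2 value of 5.71 with the next animal at 6.28, and for Cabp1, at 7.53 with the next at 7.97. Aged unimpaired animal 6 was lowest for Cacna1c, at 7.62 with the next at 7.83, and for Cacnb1, at 8.41 with the next at 8.55. Young animal 7 was highest for Cacna2d3, at 10.80 with the next at 10.65. Young animal 2 was lowest for Stx1a 1387360_at, at 9.23 with the next at 9.44.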

How the results depend on the processing

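In aged impaired against young animals, Cacna1b and Cacna2d3 kept their call in 11 of 11 alternatives other than leaving out 1 animal, Cacnb3 and Cacna2d1 in 10 of 11 and Cacna1a 1395062_at in 5 of 11. The 5 member calls became 3 without a filter and 3 with the replicate number as a block, and 3 to 5 leaving out 1 animal, with 3 without aged impaired animal 2 or 4 or young animal 1 or 2. With the replicate block Cacnb3 had an adjusted p of 0.0591 and Cacna1a 1395062_at 0.0871 in limma, and outside the members the block ended the calls of Cabp1 (0.0560), Stx1a 1387360_at (0.0558), Kcnmb4 (0.0534) and Cacnb1 (0.0703). In aged unimpaired against young it ended that of Stx1a 1387359_at (0.140), and for both aged groups those of Cacnb3 (0.118), Cabp1 (0.0910), Prkaca (0.0800) and Stx1a 1387360_at (0.0567), while Cacna2d1 became called (0.0156). For aged unimpaired against young, the 1 member call became 2 when arrays were centred over all probe sets, 2 with array weights, 2 without aged impaired animals 1 and 2, 0 without a filter, 0 with the control gap and 0 to 2 leaving out 1 animal. For both aged groups against young, the 4 calls became 6 when arrays were centred over all probe sets, 6 with quantile normalization, 6 with array weights, 6 without aged impaired animals 1 and 2, 1 without a filter and 2 to 5 leaving out 1 animal (2 without aged unimpaired animal 8 or young animal 1, 3 or 7). Member calls between the aged groups stayed at 0 throughout.

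Over all probe sets, the 1429 calls in aged impaired against young became 2352 centred over all probe sets, 768 without a filter, 870 with the replicate block, 937 with the control gap and 1017 to 1808 leaving out 1 animal. The 302 in aged unimpaired against young became 126 without a filter, 672 with array weights, 86 with the replicate block and 175 to 382 leaving out 1 animal. The 114 between the aged groups became 180 with quantile normalization, 2 without a filter, 222 with array weights, 4 without aged impaired animals 1 and 2, 2 to 447 leaving out 1 animal (447 without aged unimpaired animal 7), and 0 with the 2 groups alone, with the replicate block and with the control gap. The 1010 of both aged groups became 509 without a filter, 527 with the replicate block and 615 to 1285 leaving out 1 animal. Centred over all probe sets, the share of higher calls moved from 86.8% to 72.6% between the aged groups and from 48.4% to 27.2% for both aged groups. The causes were not tested.

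Signs turned for 2 uncalled differences. Cacna1d in aged unimpaired against young (0.01) became -0.0063 centred over all probe sets, -0.0068 with quantile normalization, -0.0057 with array weights and -0.10 to 0.086 leaving out 1 animal, and Cacna1a 1395062_at between the aged groups (-0.11) became 0.035 with the control gap and 0.0096 without aged impaired animals 1 and 2. The centring over tested probe sets was chosen after seeing the data. Comparing 2 groups alone gave no value for both aged groups together, and a filter at 5 gave none for Stac2.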
